A study of Homo sapiens with 6 samples.

Results

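NF-kB transcription factors and their target genes were followed across 6 Affymetrix arrays of cells labelled as a human multiple myeloma line. The set held 37 genes listed by symbol, and 33 of them had a probe set annotated to that gene alone, out of 18132 genes measured. Each gene was represented by its brightest such probe set. TRAF2, BIRC3, CCL4 and SOD2 had none and were not analysed as genes here. The genes were listed by name and not by their signals, with earlier results of these arrays known.

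All 6 samples were labelled NCI-H929, the name of an established myeloma line, and were collected together. The 3 samples called PRMT5_down came from cells with a PRMT5-downregulating lentivirus (PRMT5 makes most symmetric dimethylarginine in proteins), and the 3 called control from cells with a control lentivirus. The titles speak of sponges and the protocol of a short hairpin RNA vector with puromycin selection, the design text adds that the cells were sorted, and how many constructs or clones were used is not stated. Replicate numbers 1, 2 and 3 occur in both groups, but nothing given tells what equal numbers have in common, or whether cultures were separate. All p-values therefore reflect the spread of these 6 arrays alone, and that spread could be technical. The aim given was to look for possible PRMT5 targets.

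NF-kB factors are dimers of REL-family proteins. In resting cells inhibitor proteins such as the product of NFKBIA hold them in the cytoplasm. Ligands of the TNF family, acting through receptors, TRAF adaptors and kinases, lead to degradation of the inhibitor or, in the noncanonical branch run by the kinase encoded by MAP3K14, to processing of the NFKB2 product. The freed factors bind kB sites in DNA and switch on cytokine, adhesion and survival genes together with their own inhibitors. Myeloma cells often depend on this pathway, and RELA has been reported as a substrate of PRMT5.

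The 250 bases before the RefSeq transcription start of 6 of these genes are shown first, because they stand for the different patterns between replicate numbers. NFKBIA, TNFAIP3, ICAM1 and IL6 were highest in number 3, and REL was lowest there. IL2RG was lowest in number 2, as were TNFAIP3, ICAM1 and IL6, but was alike in numbers 1 and 3. RELB, NFKBIE, CD40, CCL2, CCL5 and IER3 were not matched in the promoter table. Each is written 5′ to 3′ on the strand of its gene in build GRCh38.p14. Capitals mark matches on either strand to GGNNNTTCC, a short form of the kB site in which N is any base.
NFKBIA: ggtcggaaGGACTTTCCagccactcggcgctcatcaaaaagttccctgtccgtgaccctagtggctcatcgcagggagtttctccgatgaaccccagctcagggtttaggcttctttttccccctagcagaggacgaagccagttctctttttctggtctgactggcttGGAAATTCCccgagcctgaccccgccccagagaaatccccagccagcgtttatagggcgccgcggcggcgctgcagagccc
TNFAIP3: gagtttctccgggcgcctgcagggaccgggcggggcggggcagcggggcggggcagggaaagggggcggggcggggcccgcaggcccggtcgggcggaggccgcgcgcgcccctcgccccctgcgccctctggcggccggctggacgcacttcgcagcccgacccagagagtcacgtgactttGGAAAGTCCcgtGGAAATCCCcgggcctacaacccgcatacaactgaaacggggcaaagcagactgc
ICAM1: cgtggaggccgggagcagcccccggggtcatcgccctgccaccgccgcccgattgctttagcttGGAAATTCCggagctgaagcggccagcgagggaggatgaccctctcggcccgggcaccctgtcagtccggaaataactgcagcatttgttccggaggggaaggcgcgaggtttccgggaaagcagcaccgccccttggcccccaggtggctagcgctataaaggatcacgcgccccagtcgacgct
IL6: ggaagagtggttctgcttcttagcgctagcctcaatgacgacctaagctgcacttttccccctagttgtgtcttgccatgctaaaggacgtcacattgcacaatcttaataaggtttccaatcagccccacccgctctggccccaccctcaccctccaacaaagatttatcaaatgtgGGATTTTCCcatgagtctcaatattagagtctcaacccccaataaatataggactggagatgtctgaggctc
REL: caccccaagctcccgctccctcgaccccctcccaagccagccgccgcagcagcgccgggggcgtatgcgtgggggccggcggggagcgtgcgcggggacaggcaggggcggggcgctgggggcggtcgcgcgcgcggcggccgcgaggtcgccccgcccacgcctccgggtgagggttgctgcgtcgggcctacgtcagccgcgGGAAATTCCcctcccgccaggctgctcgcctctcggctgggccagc
IL2RG: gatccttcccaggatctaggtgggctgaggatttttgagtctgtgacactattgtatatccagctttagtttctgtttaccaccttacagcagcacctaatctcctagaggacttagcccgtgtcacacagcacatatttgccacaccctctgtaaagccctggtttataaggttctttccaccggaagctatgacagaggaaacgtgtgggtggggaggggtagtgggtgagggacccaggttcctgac
The NFKBIA stretch is chr14:35404750-35404999 on the minus strand, and its matches begin 242 and 81 bases before the start. The TNFAIP3 stretch, chr6:137867009-137867258 on the plus strand, has matches that begin 67 and 55 bases before the start. ICAM1 at chr19:10270870-10271119 (plus strand) has 1 match from 186 bases before the start and IL6 at chr7:22726950-22727199 (plus strand) has 1 from 72 bases. REL at chr2:60881324-60881573 (plus strand) has 1 from 46 bases, and IL2RG at chrX:71111578-71111827 (minus strand) has none in this window.

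RefSeq held a promoter for 27 of the 33 genes, and 17 of these 27, or 63.0%, had at least 1 match to GGNNNTTCC in some listed promoter. Among all 14425 measured genes with a promoter the share was 23.5%. The stricter NF-kB decamer consensus, whose matches can overlap those of the shorter motif, was found in 12 of the 27 genes (44.4%) and in 7.7% of all genes. Of the 10 genes with a promoter that differed between replicate numbers, 8 held GGNNNTTCC, and of the 17 that did not pass, 9 did. A match is a string of letters and says nothing of binding in these cells.

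The values were log2 signals normalised by the authors, with array medians between 5.29 and 5.31. Background, taken as the 95th percentile of 333 olfactory receptor genes, lay between 4.89 and 5.01. PRMT5 was at 9.93, 10.35 and 10.30 in control 1, 2 and 3 and at 8.63, 9.65 and 9.37 in PRMT5_down 1, 2 and 3. All 3 PRMT5_down values were the lower ones, with a difference of -0.98 (SE 0.28), which did not pass over all genes (limma adjusted p = 1; 0.21 with the replicate number as a block). Of 13 plasma cell markers 5 lay above background on all 6 arrays. Among them were XBP1, NSD2 and FGFR3, with mean signals of 10.43, 9.05 and 8.63. CD38, IRF4, TNFRSF17 and MZB1 lay under background on every array. Of 14 listed erythroid genes, 8 were measured and all 8 lay above background on all arrays. The mean signals of the erythroid factor genes GATA1 and KLF1 were 10.19 and 10.30, that of the heme synthesis gene ALAS2 10.18 and that of the transferrin receptor gene TFRC 11.47, while CD38 and IRF4 were at 2.61 and 3.20. The erythroid genes HBB, AHSP, EPOR and SLC4A1 were dimmer, at 6.70, 6.78, 7.22 and 7.25. Several defining plasma cell markers were thus under background beside bright erythroid genes, which goes against the myeloma label. The bright XBP1, NSD2 and FGFR3 do not, so the markers did not all point one way. Between the groups 7 of the 8 erythroid genes had a mean difference above 0 (43.3% of all genes), with a median of 0.24, and 0 were called (0% of all genes). AHSP, the alpha globin chaperone gene, was higher in PRMT5_down in all 3 numbers, as were SLC4A1, TFRC, ALAS2, EPOR and GATA1 (11.7% of all genes). HBB was lower in all 3 (15.2% of all genes), and KLF1 was lower in number 1 and higher in the others. The part of the erythroid genes in the results on NF-kB genes was not tested.

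Of the 33 NF-kB genes, 22 lay above background on all 6 arrays, 8 on none and 3 on some. The genes with no signal above background included TNF itself, the chemokine genes CCL2 and CXCL10, EBI3, the adaptor gene TRAF1, the receptor gene CD40, the anti-apoptotic BCL2A1 and PLEK. REL was above it on 5 arrays, CCL5 on 4 and MAP3K14 on 1. Differences of genes under background carry little information, and levels of different genes are not on one scale.

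None of the NF-kB genes passed the comparison of PRMT5_down with control. Limma called 0 of the 33 at an adjusted p under 0.05, where it called 0% of all genes, and at an unadjusted p under 0.05 there were 0 of the 33 against 0.822% of all genes. The lowest unadjusted limma p among the 33 was 0.24. The mean log2 difference was above 0 for 17 genes and below 0 for 16 (43.3% and 55.5% of all genes), between -0.14 and 0.19, with a median of 0.00 beside -0.02 for all genes. For 0 of the 33 did the 3 values of one group lie wholly above or below those of the other, which was so for 3.92% of all genes (1.26% higher and 2.66% lower in PRMT5_down). The lowest two-sided exact permutation p was 0.20, where 3 arrays against 3 allow 0.1 at best.

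With the replicate number as a block the group difference was measured more finely, and again 0 of the 33 passed (lowest limma adjusted p = 0.61, unadjusted 0.056, for CCL5). At an unadjusted p under 0.05 limma had 0 of the 33 with the block, against 8.25% of all genes. The standard errors were 0.08 to 0.15 with the block and 0.07 to 0.83 without it. The 95% intervals of the 33 differences lay between -0.35 and 0.44 log2 units with the block and between -2.17 and 1.90 without it. The sign was the same in all 3 replicate numbers for 8 genes, or 24.2%, beside 26.9% of all genes. Of these, RELA, TNFAIP3 and CCL5 were higher in PRMT5_down (11.7% of all genes) and NFKB2, CD40, LTA, IER3 and TNFAIP2 lower (15.2% of all genes). Other probe sets of TNFAIP3, CCL5, CD40 and TNFAIP2 had mixed signs over the numbers.

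Among the factors, RELA, the main activating subunit, differed by 0.11, 0.05 and 0.21 in replicate numbers 1, 2 and 3. REL, a factor of lymphoid cells, differed by 0.47, -0.05 and 0.15, so that most of its mean of 0.19 came from number 1. NFKB1 and NFKB2, the genes of the precursor subunits, had mean differences of -0.02 and -0.04, and RELB, the partner of the NFKB2 product, -0.12. The feedback genes stood at 0.03, -0.03 and 0.19 for NFKBIA and at 0.16, 0.01 and 0.24 for TNFAIP3, which encodes the ubiquitin-editing enzyme A20. Another TNFAIP3 probe set, also above background on all arrays, gave 0.23, -0.16 and 0.08. For NFKBIA the choice of probe set mattered: its other probe sets, also above background throughout, were higher in PRMT5_down in all 3 numbers, by 0.16, 0.08 and 0.39 and by 0.08, 0.20 and 0.35. Its mean difference of 0.06 became 0.16 with the mean of its probe sets and 0.21 with the most variable one, neither passing (limma adjusted p = 1). The chemokine gene CCL5 was higher in PRMT5_down in all 3 numbers in its brightest probe set, by 0.15, 0.23 and 0.15. A CCL5 probe set nearly as bright gave 0.08, 0.22 and -0.02, and the other, under background on all arrays, -0.16, 0.14 and -0.22. With the mean of its probe sets the CCL5 difference went from 0.18 to 0.06. The chemokine gene CXCL8 had the widest spread, with 0.18, -0.45 and 0.44. Whether the difference itself varied between numbers could not be tested, as each number holds 1 array of each group.

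**Figure D1:**
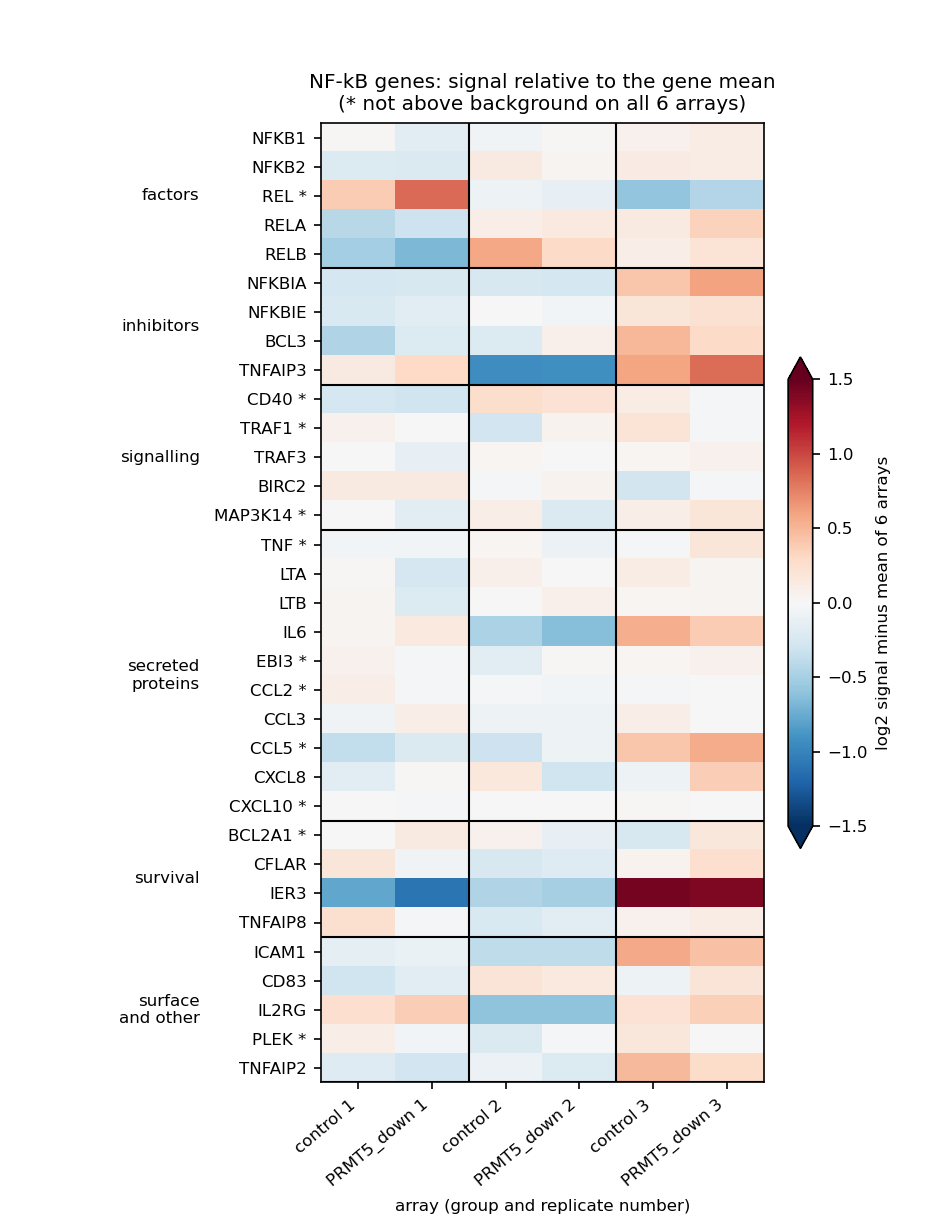
Log2 signal of the 33 NF-kB genes on the 6 arrays, each minus that gene's mean over the arrays, with genes in rows by role and arrays in columns by replicate number. Columns of the same number look alike whichever lentivirus was used, and IER3, TNFAIP3 and NFKBIA are highest in number 3 (IER3 at 10.39 and 10.35 there).

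Between replicate numbers the NF-kB genes spread more widely than between the groups, and so did all genes. The median range of the 3 number means was 0.33 for the 33 genes and 0.27 for all genes. The median size of the group difference was 0.06 and 0.08. A range over 3 means and a mean difference between groups are unlike measures, and the range tends to be the larger. Limma's F-test for any difference between the 3 numbers, with the group as a term, called 15 of the 33 (45.5%), where it called 35.1% of all genes (17 and 43.5% at an unadjusted p under 0.05). Among genes above background on all 6 arrays the shares were 54.5% for NF-kB genes and 54.9% for all such genes, so that the number of genes called was near the background. The direction was less even. In number 3 compared with number 1, 14 genes were called (29.3% of all genes), 13 higher and 1 lower. These are 39.4% and 3.03%, where 14.5% and 14.8% of all genes were called higher and lower. Among genes above background on all 6 arrays, 11 of 22 were higher and 0 lower (22.7% and 23.0% of all such genes). In number 3 compared with number 2, 9 were higher and 0 lower (27.3% and 0%), beside 9.02% and 10.1% of all genes (19.1% in both directions). Among genes above background on all 6 arrays these were 8 and 0 of 22 (13.9% and 15.8% of all such genes). Between numbers 2 and 1 the calls were split, with 9 called (18.1% of all genes), 5 higher and 4 lower in number 2 (9.01% and 9.11% of all genes). Among genes above background on all 6 arrays these were 4 and 3 of 22 (14.5% and 13.9% of all such genes).

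In all, 8 genes were higher in number 3 than in both other numbers by limma, or 24.2%, beside 5.65% of all genes, and 0 were lower than in both, beside 5.95%. They were NFKBIA, BCL3, TNFAIP3, IL6, CCL5, IER3, ICAM1 and TNFAIP2. The shares beside them are of all genes, of which 56.3% lay above background on all arrays, against 66.7% of the 33. With the mean of its probe sets BCL3 was not called between numbers 3 and 2 (0.12, limma adjusted p = 0.38). The median difference of the 33 genes between number 3 and number 1 was 0.19, beside 0.06 for all genes, and between number 3 and number 2 it was 0.13, beside 0.04. Number 3 had the highest mean for 23 of the 33, number 1 for 6 and number 2 for 4, where the shares of all genes were 46.1%, 28.4% and 25.6%. The range of the 3 number means was at least 1 log2 unit for 5 genes, IER3, TNFAIP3, REL, RELB and IL6, and for 5.21% of all genes. That range was larger than the average size of the differences within numbers for 30 of the 33 (81.2% of all genes). With any 1 array left out, limma's F-test called 0 of all genes and so 0 of the 33; 1 residual degree of freedom per gene was left, and the cause was not tested. The adjusted p of IER3 and of TNFAIP3 was then 0.052 to 0.082. Of the pairwise contrasts, that of 3 and 2 called 0 of the 33 without any 1 array. That of 3 and 1 called 9 without either array of number 2 and otherwise 0, and that of 2 and 1 called 3 without either array of number 3 and otherwise 0.

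**Figure D2:**
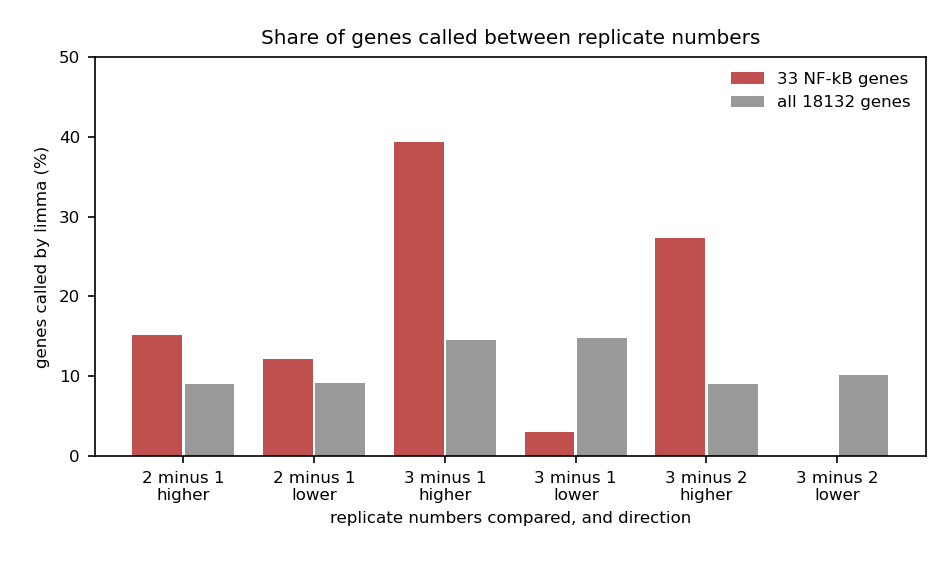
Percentage of genes called by limma at an adjusted p under 0.05 between each pair of replicate numbers, split into higher and lower in the first-named number, for the 33 NF-kB genes and for all 18132 genes. Read without a test, the NF-kB genes stand above all genes for higher in number 3 (39.4% against 14.5% beside number 1) and below them for lower.

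The inhibitors and feedback genes all differed between numbers in the reported fit, 4 of 4 by the F-test. All 4 lay above background on every array, where 54.9% of all such genes were called. NFKBIA, whose product traps RELA dimers, was at 8.24, 8.27 and 8.92 in control 1, 2 and 3 and at 8.27, 8.24 and 9.11 in PRMT5_down 1, 2 and 3. Both arrays of number 3 stood above the other 4, and numbers 1 and 2 were alike. The difference was 0.76 (SE 0.10) between numbers 3 and 1 (limma adjusted p = 0.0017) and 0.76 (SE 0.10) between 3 and 2 (limma adjusted p = 0.0033). Number 3 was also highest in its other probe sets, with number means of 7.77, 7.86 and 8.63 in one and 7.58, 7.51 and 8.38 in the other.

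TNFAIP3 was at 7.13, 6.06 and 7.59 in controls and at 7.29, 6.07 and 7.83 in PRMT5_down. Its arrays fell into separate levels by number, lowest in number 2, and the groups overlapped. Number 3 exceeded number 2 by 1.64 (SE 0.10; limma adjusted p = 0.00028), and number 2 lay 1.15 below number 1 (a difference of -1.15, limma adjusted p = 0.0008). BCL3, an atypical nuclear IkB protein, was at 5.76, 6.00 and 6.71 in controls and at 6.00, 6.28 and 6.50 in PRMT5_down, with a difference of 0.73 (SE 0.14) between numbers 3 and 1 (limma adjusted p = 0.0057). With the mean of its probe sets that was 0.18 and did not pass (limma adjusted p = 0.14), nor did BCL3 in the F-test (limma adjusted p = 0.26). NFKBIE, another cytoplasmic inhibitor gene, differed by 0.40 (SE 0.10) between numbers 3 and 1 (limma adjusted p = 0.017). Its F-test (limma adjusted p = 0.036) had 0.055 with the most variable probe set per gene and 0.064 with trend and robust variances.

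Of the 5 factors 3 were called by the F-test (35.1% of all genes), in different directions. As 4 of the 5 lay above background on all arrays, the nearer comparison is the 54.9% of all such genes. REL was at 5.90, 5.45 and 4.93 in controls and at 6.37, 5.40 and 5.08 in PRMT5_down. It was highest in number 1, and lower by limma in number 2 (-0.71, SE 0.13, adjusted p = 0.0095) and in number 3 (-1.13, SE 0.13, adjusted p = 0.0011). A second REL probe set, above background on 2 arrays and so under it in numbers 2 and 3, had number means of 5.34, 4.75 and 4.36. RELA went the other way, at 8.62, 9.13 and 9.17 in controls and at 8.73, 9.18 and 9.38 in PRMT5_down. Both arrays of number 1 were below the other 4, and number 3 exceeded number 1 by 0.60 (SE 0.10; limma adjusted p = 0.0035). RELB was likewise lowest in number 1, at 5.31 and 5.15, against 6.40 and 6.11 in number 2 and 5.92 and 6.02 in number 3. Its difference between numbers 2 and 1 was 1.02 (SE 0.12; limma adjusted p = 0.0017). NFKB2 differed by 0.33 (SE 0.10) between numbers 3 and 1 (limma adjusted p = 0.036, and NFKB2 had 0.057 where the most variable probe set stood for each gene) and missed the F-test (limma adjusted p = 0.051). NFKB1 did not pass (limma adjusted p = 0.50).

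Of 5 measured signalling genes 1 was called, beside 35.1% of all genes. It was CD40 (limma adjusted p = 0.010), with all 6 values under background. BIRC2, a ubiquitin ligase that with TRAF adaptors keeps the noncanonical kinase low, had a range of number means of 0.28 (limma adjusted p = 0.16). TRAF3, the adaptor that brings that kinase to degradation, had a range of 0.11 (limma adjusted p = 0.64). MAP3K14 stood between 4.58 and 4.97 on the 6 arrays, near background (limma adjusted p = 0.32).

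Among secreted proteins, 2 of 10 were called, IL6 and CCL5, beside 35.1% of all genes. IL6, a growth factor of myeloma cells, was at 6.76, 6.24 and 7.26 in controls and at 6.86, 6.07 and 7.09 in PRMT5_down. Like TNFAIP3 it was lowest in number 2 and highest in number 3, with a difference of 1.02 (SE 0.11) between these (limma adjusted p = 0.0016). A dimmer IL6 probe set, above background on 1 array, had another order, with number means of 4.39, 4.62 and 4.89. CCL5, a T cell-attracting chemokine gene, was at 4.85, 4.91 and 5.63 in controls and at 5.00, 5.14 and 5.78 in PRMT5_down. Only number 3 and the other PRMT5_down arrays were above background, and number 3 exceeded number 1 by 0.78 (SE 0.10; limma adjusted p = 0.0012). CXCL8, at 6.24 to 6.90, did not pass (limma adjusted p = 0.59). The lymphotoxin genes LTA and LTB, above background throughout, had ranges of number means of 0.20 and 0.13 and did not pass (limma adjusted p = 0.34 and 0.61).

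The survival gene IER3, an early response gene, had the widest range of number means of the 33, and ranked 7 of all genes in the F-test. Its signal was 8.17, 8.50 and 10.39 in controls and 7.86, 8.45 and 10.35 in PRMT5_down. The arrays of number 3 stood far above the rest, while those with and without lowered PRMT5 overlapped. The difference was 2.35 (SE 0.11) between numbers 3 and 1 (limma adjusted p = 0.00018) and 1.90 (SE 0.11) between 3 and 2 (limma adjusted p = 0.00027). CFLAR, which blocks caspase-8 at death receptors, and TNFAIP8 had ranges of 0.37 and 0.29 and did not pass (limma adjusted p = 0.096 and 0.14).

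Of the surface and other genes, 4 of 5 were called, beside 35.1% of all genes and 54.9% of those above background on all arrays. ICAM1, the adhesion molecule bound by leukocyte integrins, was at 7.50, 7.26 and 8.21 in controls and at 7.55, 7.27 and 8.08 in PRMT5_down. Number 3 was above the other arrays, by 0.62 (SE 0.10) over number 1 (limma adjusted p = 0.0032) and by 0.88 (SE 0.10) over number 2 (limma adjusted p = 0.0019). IL2RG, the shared chain of several cytokine receptors, was at 6.60, 5.75 and 6.57 in controls and at 6.72, 5.74 and 6.71 in PRMT5_down. It was set apart by low values in number 2, by -0.92 (SE 0.10) from number 1 (limma adjusted p = 0.0014), and numbers 1 and 3 differed by -0.02 (95% interval -0.25 to 0.21). All 6 IL2RG probe sets were lowest in number 2, but of these only 3 lay above background on all arrays, and the others on 2, 1 and 0 arrays. TNFAIP2, at 6.86, 6.96 and 7.54 in controls and at 6.77, 6.85 and 7.33 in PRMT5_down, was higher in number 3 than in number 1 by 0.62 (SE 0.10, limma adjusted p = 0.0029). Its other, dimmer probe sets were also highest in number 3, but by less. The brightest of those had number means of 5.91, 5.88 and 6.17, and the dimmest, above background on 4 arrays, 4.95, 4.95 and 5.25. CD83, a maturation marker of antigen-presenting cells, was lowest in number 1 and only just passed (limma adjusted p = 0.049; 0.062 with the most variable probe set per gene).

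**Figure D3:**
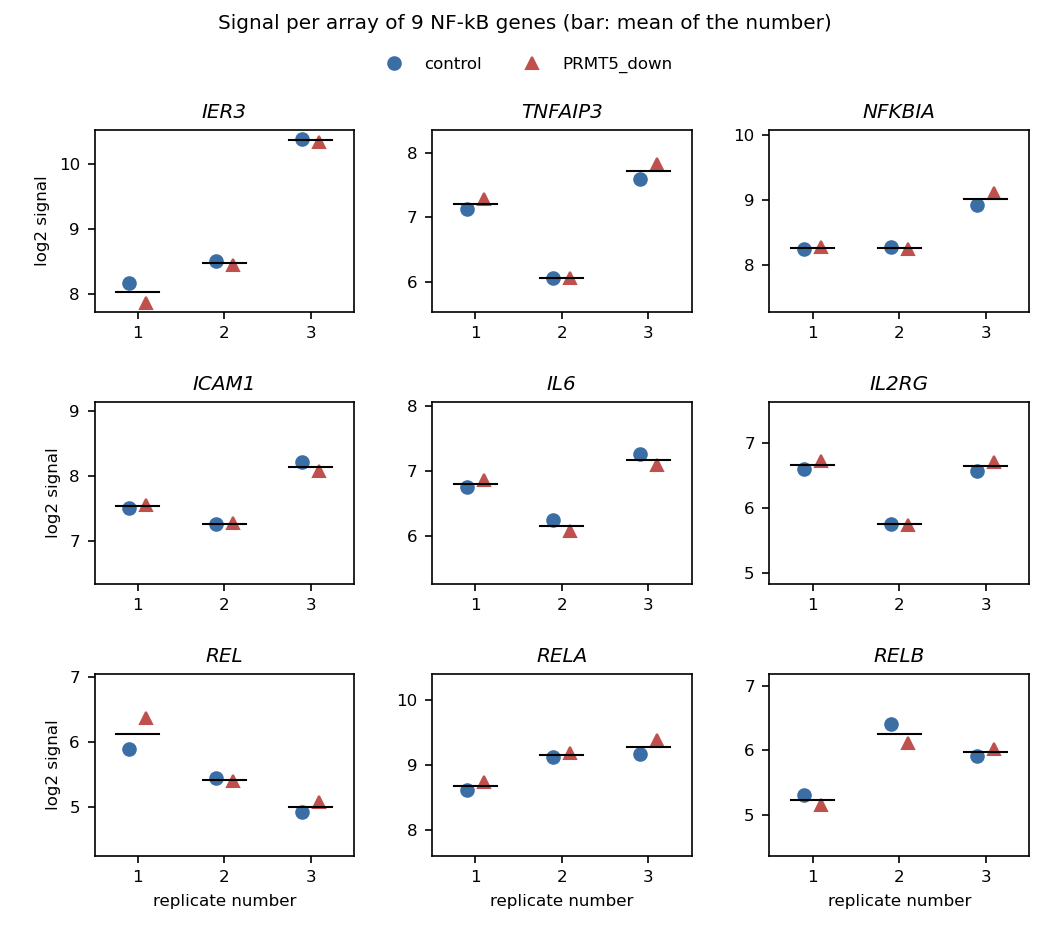
Log2 signal per array for 9 NF-kB genes by replicate number, circles for control, triangles for PRMT5_down and bars for the mean of each number; all panels span at least 2.8 log2 units. Circles and triangles of a number lie close together, and IER3, TNFAIP3, NFKBIA, ICAM1 and IL6 are highest in number 3. IL2RG is lowest in number 2, as are TNFAIP3, ICAM1 and IL6, and REL is highest in number 1.

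**Figure D4:**
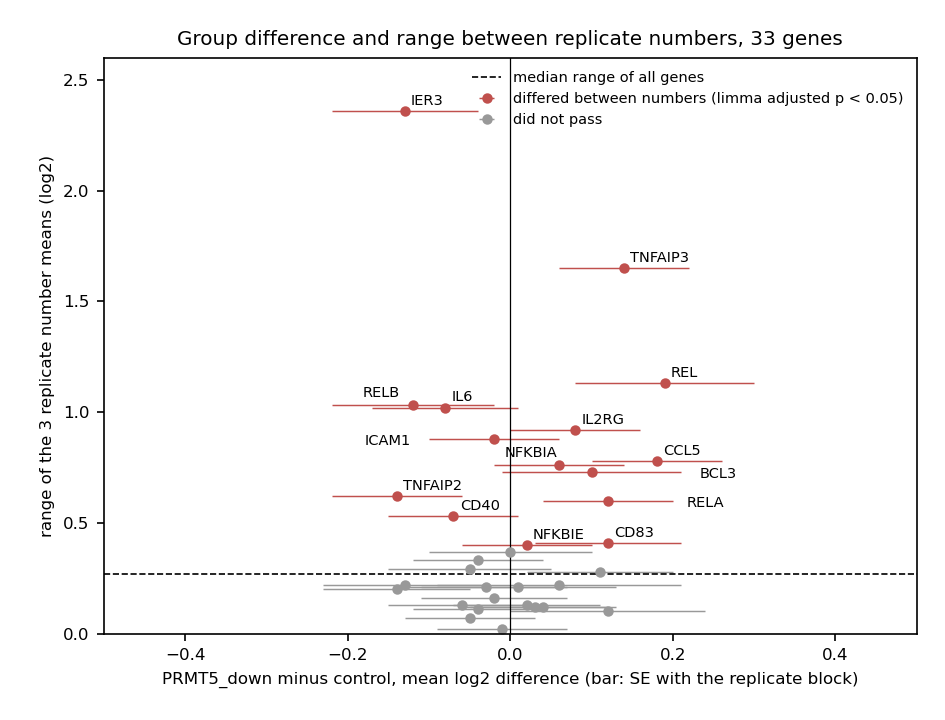
For each of the 33 genes, the mean log2 difference PRMT5_down minus control (horizontal, with the standard error from the fit with the replicate block) against the range of its 3 replicate number means (vertical); the dashed line is the median range of all genes, 0.27. Horizontal values stay between -0.14 and 0.19 while the vertical ones reach 2.36, that of IER3. A range and a signed mean difference are unlike measures, so the axes cannot be compared directly.

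Genes of the same pathway outside the set were read from lists written by role. Of 22 measured kinases, adaptors and ubiquitin enzymes, 0 were called between the groups and 14 between numbers (63.6%, beside 35.1% of all genes), 7 higher and 6 lower in number 3 than in number 1. As 21 of the 22 lay above background on all arrays, the nearer comparison is the 54.9% called among all such genes. Of these, 22.7% were higher and 23.0% lower in number 3 than in number 1. All 3 genes of the linear ubiquitin ligase that builds chains on the IKK complex were higher in number 3 than in number 1, RBCK1 by 1.46 (SE 0.13), RNF31 by 0.72 (SE 0.12) and SHARPIN by 0.71 (SE 0.11) (limma adjusted p of the F-test = 0.00087, 0.0045 and 0.0021). TRADD, the adaptor of TNF receptors, was higher by 1.15 (SE 0.12; limma adjusted p = 0.0013 in the F-test). Between the groups, the kinase gene IKBKE differed by -0.35 (SE 0.28), short of the threshold at a limma adjusted p of 1.

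Of 14 other inhibitors 6 were called between numbers (42.9%), below the 54.9% of all genes above background on all arrays, where 13 of the 14 lay. There were 4 higher and 3 lower in number 3 than in number 1 by the pairwise contrast (22.7% and 23.0% of all genes above background on all arrays). TNIP1 and TNIP2, partners of A20, exceeded number 1 by 0.73 (SE 0.12) and 0.57 (SE 0.11) in number 3, and TAX1BP1, an A20 adaptor, lay at -0.73 (SE 0.10) (limma adjusted p of the F-test = 0.0073, 0.012 and 0.0034). Of 15 receptors, 9 of them under background on all arrays, 6 were called between numbers (35.1% of all genes), among them the TNF receptor gene TNFRSF1A, at 7.75, 7.11 and 8.27 in controls and at 7.45, 6.97 and 7.95 in PRMT5_down, and the lymphotoxin receptor gene LTBR, higher by 1.14 (SE 0.13) in number 3 than in number 1 (limma adjusted p of the F-test = 0.00099 and 0.0016). TNFRSF1A, like TNFAIP3 and IL6, was lowest in number 2.

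Of 28 measured further targets 9 were called between numbers (32.1%, beside 35.1% of all genes). In number 3 compared with number 2, 8 were higher and 0 lower (9.02% and 10.1% of all genes). In number 3 compared with number 1, 6 were higher and 1 lower (14.5% and 14.8% of all genes). In number 2 compared with number 1, 1 was higher and 6 lower (9.01% and 9.11% of all genes). Low values in number 2 thus enter the count of 8. The chemokine gene CXCL2 was at 6.51, 5.67 and 7.14 in controls and at 6.21, 5.98 and 6.87 in PRMT5_down, and the costimulatory ligand gene CD80 at 7.60, 6.81 and 8.10 and at 7.52, 6.73 and 7.74. Both were lowest in number 2 and highest in number 3, with differences between these of 1.18 (SE 0.16) and 1.15 (SE 0.11) (limma adjusted p of the F-test = 0.0028 and 0.00098). In a published set of 11 genes used as an NF-kB index of myeloma, 10 were measured and 5 were called between numbers (35.1% of all genes), while 0 were called between the groups. These 5, TNFAIP3, IL2RG, NFKBIE, RELB and NFKBIA, are all among the 33 genes already counted. Of the genes outside the 33, none was called (limma adjusted p of the F-test = 0.27 for MALT1, 0.92 for CD74 and 0.97 for WNT10A). MALT1 and WNT10A were under background on every array and CD74 was above it on 2.

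Other measures were also read by replicate number. The actin control transcript had a 3′ signal above its 5′ signal by 1.09 and 1.22 in number 1 (control and PRMT5_down), by 1.02 and 1.02 in number 2 and by 0.73 and 0.84 in number 3, while for GAPDH it was 0.06 to 0.14 on all arrays. Of 9 monocyte markers 2 were called by the F-test, with a mean level of 4.73, 4.84 and 5.10 in numbers 1, 2 and 3. Of the 9, 5, CD14 included, were under background throughout. LYZ, CD68 and CSF1R were above it on all arrays (mean signals of 9.02, 7.67 and 5.16). Of 9 T and NK cell markers 1 was called, with mean levels of 4.87, 4.79 and 5.10. Under background throughout were 4 of them, CD3G and CD2 included, while CD3D, CD7 and NKG7 were above it on all arrays (7.50, 6.93 and 5.25). Of 7 B cell markers 2, of 13 plasma cell markers 0 and of 8 erythroid genes 5 were called. Of the B cell markers 4 were above background on all arrays, the brightest being PAX5 (8.34). The shares of the monocyte, T and NK, B and plasma cell markers (22.2%, 11.1%, 28.6% and 0%) lay below the 35.1% of all genes. For the erythroid genes, all above background, it was 62.5%, beside 54.9% of all genes above background on all arrays. PRMT5 itself differed between numbers (limma adjusted p = 0.013). The part of these measures in the differences of NF-kB genes was not tested, and fewer cells of a type cannot be told apart from less RNA per cell.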

How the data were processed

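The authors deposited log2 signals per probe set, made with RMA per the submitters' processing notes; its version is not given in the sources used here, nor is the chip definition. RMA evens out the arrays, so a shift shared by most genes would not show. Of 49372 probe sets, 44988 had 1 gene symbol, 1832 several and 2473 none, besides 79 controls. For 44961 of the 44988 the gene identifier was matched in RefSeq and the symbol taken from there, whether or not it differed. The brightest single-symbol probe set stood for a gene, and no filter was set on dim genes.

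Groups were compared in limma 3.58.1 (R 4.3.3; lmFit, eBayes) over all 18132 genes with Benjamini-Hochberg adjustment at 0.05, without a block. Replicate numbers were compared in a fit with group and number as terms, pairwise and by the moderated F-test. Deviations from the group means correlated at r = 0.82, 0.72 and 0.79 across genes between arrays of the same number, which was used as the sign of pairing; it comes from the data, not the labels. The fits were tested on simulated data. There the group fit without a block recovered 0% of changes of 0.5 log2 units and 50% of changes of 1 log2 unit. With the block it recovered 92% and 100%. Promoters came from RefSeq (GRCh38.p14). Members, lists and motifs were chosen with earlier results of these data known. Members were all open to naming; of each other list, up to 4 genes with the smallest p between numbers and 2 between groups, besides markers. The lists share some genes with one another and with the members. With 3 arrays a group their number limits the precision. As alternatives, quantile normalization was repeated, dim genes were left out, probe sets were averaged or the most variable taken, trend and robust variances, the block and left-out arrays were run.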

Additional observations from a re-analysis of the deposited data

How the results depend on the processing

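The count of NF-kB genes called between the groups was 0 under every setting run, the replicate block included, and the block changed no call. An unadjusted p under 0.05 was reached by 149 genes in the reported fit. Adding the replicate block gave 1495. Dropping the dimmest 30% of genes gave 57 and the dimmest 50% gave 23, from fewer genes. Trend and robust variances gave 230, and leaving out 1 array 92 to 285. Between numbers, the F-test called 12 to 16 NF-kB genes and 5883 to 6979 of all genes over the settings that keep all arrays. With 1 array left out, the F-test called 0 to 0 of all genes and of the 33. The contrast of numbers 2 and 1 called 0 to 1018 of all genes and 0 to 3 of the 33, that of 3 and 1 called 0 to 2747 and 0 to 9, and that of 3 and 2 called 0 to 0 and 0 to 0; the cause was not tested. No called difference between numbers changed sign under any setting. CD83, NFKBIE, BCL3, IL6, CD40 and NFKB2 lost a call, or gained one in the F-test, in some setting with all arrays. CFLAR passed the F-test with the most variable probe set (limma adjusted p = 0.049). Pairwise contrasts gained calls too. That of 3 and 2 called 10 of the 33 with quantile normalization again and with the dimmest 30% left out, where all 9 reported calls were kept. Genes and directions of such gains were not followed. The CFLAR difference between the groups, 0.00 in the reported fit, was -0.10 with the mean of probe sets and -0.16 with the most variable one. It ran from -0.12 to 0.10 with 1 array left out. Differences between the groups, none of them called, changed sign with quantile normalization again for NFKBIE (-0.01) and CXCL10 (0.01) and with the most variable probe set for MAP3K14 (0.01). With 1 array left out they changed sign over these ranges: NFKB1 -0.08 to 0.06, NFKB2 -0.15 to 0.06, REL -0.19 to 0.46, RELA -0.05 to 0.31, RELB -0.40 to 0.19, NFKBIA -0.22 to 0.28, NFKBIE -0.09 to 0.12, BCL3 -0.09 to 0.38, TNFAIP3 -0.30 to 0.63, CD40 -0.22 to 0.06, TRAF1 -0.13 to 0.12, TRAF3 -0.08 to 0.02, TNF -0.05 to 0.08, LTB -0.11 to 0.03, IL6 -0.34 to 0.22, EBI3 -0.02 to 0.09, CCL3 -0.03 to 0.07, CCL5 -0.06 to 0.43, CXCL8 -0.11 to 0.22, IER3 -0.87 to 0.55, TNFAIP8 -0.17 to 0.06, ICAM1 -0.25 to 0.25, IL2RG -0.19 to 0.41, PLEK -0.15 to 0.04, TNFAIP2 -0.31 to 0.07; the cause was not tested, and in each case 1 replicate number then weighed on one group only.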

Other observations

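Probe sets annotated to both SOD2, the mitochondrial superoxide dismutase and a known NF-kB target, and the overlapping transcript SOD2-OT1 could not be given to one gene. The brightest was at 7.88, 8.04 and 7.41 in controls and at 8.08, 8.10 and 7.43 in PRMT5_down, lowest in number 3, where NFKBIA, IER3 and ICAM1 were highest. A second had number means of 7.17, 6.71 and 6.47. The 3 probe sets shared by CCL4 and its near-copies CCL4L1 and CCL4L2 were under background on all 6 arrays.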
